A study of Mus musculus with 15 samples.

Results

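Chemokines of the CC family are small secreted proteins that draw white blood cells out of the blood and into inflamed tissue. CCR2, a G protein-coupled receptor on inflammatory monocytes, binds CCL2 and its close relatives and is known for moving monocytes from bone marrow and blood into injured kidney and lung, where they become macrophages. Ccl2, Ccl3, Ccl4, Ccl6, Ccl7, Ccl8, Ccl9, Ccl12 and Ccr2 were chosen by name as the 8 monocyte-attracting ligands and the receptor, and make up 9 of the 56748 genes in the expression table. All 9 were tested in both organs.

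The values came from whole kidney and whole lung of wild-type male C57Bl/6 mice, with 3 libraries in each of 5 groups. WTK was kidney after vehicle, with no antibody named in its label. IgGK and LepK were kidneys after a single intraperitoneal dose of folic acid at 200 mg/kg, which injures the tubules, followed by control IgG or by the leptin-neutralizing antibody (LepAb). Mice of all kidney groups, WTK included, were 10 to 12 weeks old at injection and were euthanized at day 28. The folic acid groups received antibody at 10 mg/kg every other day for 21 days from day 1. IgGL and LepL were lungs of 12-week-old mice after a single intratracheal dose of bleomycin at 1.5 units/kg, followed by control IgG or LepAb at 10 mg/kg for 14 days, with euthanasia at day 14. Leptin is a hormone made mostly by fat cells. Vehicle-treated lung was not analysed here, so the lung shows an antibody comparison and no injury comparison. Nothing in the labels names the animal behind each library, and the p-values below measure the spread between these libraries.

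Each library held 25913969 to 38924788 counted reads. The organ labels matched their defining genes: the summed level of 6 kidney tubule markers lay between 4959 and 15540 CPM (read counts scaled to a common library size) in kidney and did not exceed 159 CPM in lung, and 6 lung epithelial markers summed to at least 15641 CPM in lung and at most 9.23 CPM in kidney. A pair of libraries stood apart. The 3 adrenal cortex markers, Star, Cyp11a1 and Cyp11b1, summed to 374 CPM in IgGK replicate 1 and 445 CPM in IgGK replicate 2, against 11.97 CPM in IgGK replicate 3 and no more than 7.64 CPM in any other kidney library. For those of the 9 genes called with all libraries, the tests that rest on IgGK are also given without replicates 1 and 2. Marker lists, ligand shares and ratios use all libraries.

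The 8 ligands sit in a pair of clusters on chromosome 11 (GRCm39). Ccl2 lies at chr11:81926397-81928279 on the plus strand. Ccl7, Ccl12 and Ccl8 follow at 10.1, 66.3 and 79.6 kb from it, all on the plus strand. Ccl9, Ccl6 and Ccl3 lie on the minus strand at 1537, 1552 and 1612 kb from the start of Ccl2, and Ccl4 on the plus strand at 1627 kb. Ccr2 is on chromosome 9 at chr9:123901990-123913590. The library preparation did not keep strand, so reads from Ccl3 and Ccl6 cannot be told apart from those of long noncoding RNAs on the opposite strand that overlap them. The overlapping gene had at most 49 counts in any library for Ccl3 and at most 141 counts for Ccl6.

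Promoters were available from RefSeq (GRCm38.p6) for 6 of the 9 genes, Ccl3, Ccl6, Ccl8, Ccl9, Ccl12 and Ccr2. The 250 bases before the annotated start are printed for Ccl12 and Ccl8, neighbours that had lower means in LepK, and for Ccl9 and Ccl6, the neighbouring pair in the other cluster with the same direction. Capitals mark TATAAA in the sense direction, the letters of the core promoter box that places the start of transcription, and, on either strand, the AP-1 letters TGANTCA or a kappa B frame, which is GGG and CC with any 5 bases between them. Ccl12 is chr11:82101595-82101844 and Ccl8 is chr11:82114935-82115184, both on the plus strand. Ccl9 is chr11:83578637-83578886 and Ccl6 is chr11:83593088-83593337, both on the minus strand and printed 5′ to 3′ along the gene.
Ccl12: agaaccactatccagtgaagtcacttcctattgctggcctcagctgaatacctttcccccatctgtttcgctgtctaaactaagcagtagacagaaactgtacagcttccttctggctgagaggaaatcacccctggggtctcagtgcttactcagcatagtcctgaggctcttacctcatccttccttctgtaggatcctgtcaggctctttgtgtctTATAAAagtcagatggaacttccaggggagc
Ccl8: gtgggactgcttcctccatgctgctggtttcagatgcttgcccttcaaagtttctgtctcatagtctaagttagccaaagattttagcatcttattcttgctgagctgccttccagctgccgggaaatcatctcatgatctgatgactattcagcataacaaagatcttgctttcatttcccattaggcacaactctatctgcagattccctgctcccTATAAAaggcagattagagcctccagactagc
Ccl9: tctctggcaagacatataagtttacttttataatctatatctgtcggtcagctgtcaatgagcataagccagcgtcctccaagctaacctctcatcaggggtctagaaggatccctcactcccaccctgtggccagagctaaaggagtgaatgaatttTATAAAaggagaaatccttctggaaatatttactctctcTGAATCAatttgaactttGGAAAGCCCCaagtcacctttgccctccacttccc
Ccl6: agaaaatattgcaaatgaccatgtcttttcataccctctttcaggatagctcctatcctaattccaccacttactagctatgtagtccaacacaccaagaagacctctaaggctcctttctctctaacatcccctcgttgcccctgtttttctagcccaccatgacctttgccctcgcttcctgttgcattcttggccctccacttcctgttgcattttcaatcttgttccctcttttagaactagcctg
TATAAA lay 31 to 26 bases before the start of Ccl12, 32 to 27 bases before that of Ccl8 and 92 to 87 bases before that of Ccl9. These letters were present in 7.59% of 32851 mouse promoters of this length. Ccl9 also held TGANTCA at 53 to 47 bases (6.75% of promoters) and a kappa B frame on the minus strand at 35 to 26 bases (45.8% of promoters), with no overlap among the 3 matches. The STAT letters TTCNNNGAA (7.02% of promoters), the C/EBP letters TTGCNNCAA (1.74%) and the PU.1 letters GAGGAAGT (2.44%), each searched on both strands, were not in these windows of the 6 genes. Ccl6 and Ccl9 shared a run of 13 bases, gccctccacttcc, which began 55 bases before the start of Ccl6 and 14 bases before that of Ccl9.

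The first comparison asked how the injured kidney differed from the vehicle kidney. Of the 9 genes, 8 rose in IgGK against WTK, where 21.7% of the 19593 genes tested were called higher. A call needed a log2 fold change beyond 0.5 and an adjusted p under 0.05 in edgeR. The median log2 fold change was 3.43 over the 9 genes and 0.04 over all genes tested. None fell by edgeR or DESeq2, and each of the 8 with an unadjusted p under 0.05 was higher. Over all genes 58.0% had an unadjusted p under 0.05 in either direction. In 8 of the 9 genes, all but Ccl4, every IgGK library lay above every WTK library, a pattern shown by 32.5% of genes.

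Among the CCR2 ligands, normalized CPM of Ccl2, the classical monocyte chemoattractant, were 0.37, 1.15 and 1.15 in WTK and 16.1, 15.3 and 17.7 in IgGK. Each injured kidney lay above each vehicle kidney, and the log2 fold change was 4.18 (SE 0.29, adjusted p = 2.24e-07). Ccl7, which also acts through CCR2, was near the detection limit in WTK at 2 to 6 counts a library. Its levels went from 0.08, 0.16 and 0.22 CPM in WTK to 4.12, 5.40 and 4.16 CPM in IgGK, a log2 fold change of 4.84 (SE 0.38). Ccl12, a further CCR2 ligand of the mouse, had 3 to 9 counts in WTK. It went from 0.37, 0.16 and 0.11 CPM to 3.13, 5.34 and 4.10 CPM, a log2 fold change of 4.30 (SE 0.43). The WTK and IgGK libraries overlapped for none of these 3 ligands.

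Ccl8, a CC ligand described in the mouse as an agonist of CCR8, stood at 1.95, 0.83 and 2.67 CPM in WTK and at 13.4, 22.5 and 15.3 CPM in IgGK, a log2 fold change of 3.22 (SE 0.33). Ccl6 and Ccl9 are ligands of CCR1, a receptor of monocytes and neutrophils. Ccl6 rose from 3.66, 3.83 and 5.52 CPM to 39.9, 53.4 and 47.3 CPM, by 3.43 on the log2 scale (SE 0.20). Ccl9 rose from 2.04, 3.24 and 3.35 CPM to 40.5, 51.4 and 41.2 CPM, by 3.94 (SE 0.21). In all 3 genes the highest vehicle kidney was well below the lowest injured one. Ccr2 itself went from 8.76, 9.32 and 9.74 CPM to 59.9, 69.8 and 62.9 CPM, a log2 fold change of 2.79 (SE 0.12, adjusted p = 1.13e-08). Its replicates were the closest together of the 9 genes in WTK, with a coefficient of variation of 5.26%.

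Ccl3 and Ccl4, the MIP-1 chemokines, were low in every kidney. Ccl3 was at 0.50, 0.08 and 0.07 CPM in WTK, with 2 to 12 counts, and at 1.06, 0.77 and 1.07 CPM in IgGK. Its log2 fold change of 2.16 (SE 0.66, adjusted p = 0.0149) lost its call when WTK replicate 2 or 3 was left out, with an adjusted p of up to 0.0645, and was 3.61 (adjusted p = 0.00109) without WTK replicate 1. It also lost its call without both IgGK libraries high in adrenal markers (2.31, adjusted p = 0.0948). Ccl4 was at 0.33, 1.11 and 0.25 CPM in WTK and 0.99, 1.69 and 1.04 CPM in IgGK, and WTK replicate 2 lay within the injured range. The difference of 1.14 (95% confidence interval -0.02 to 2.30, adjusted p = 0.0924) was not called. It was called without WTK replicate 2, at 2.07 (adjusted p = 0.00588), and with library size as the only scaling, at 1.58 (adjusted p = 0.0222).

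The other 7 genes kept their calls when any single library was left out and without both adrenal-high libraries, where their log2 fold changes ran from 2.76 for Ccr2 to 4.71 for Ccl7. With library size as the only scaling the median over all genes was 0.48, and the split of calls over all genes went from 4253 higher and 3057 lower to 7803 higher and 1178 lower. Under that scaling Ccr2, which had the smallest rise of these 7 genes, stood at 3.23.

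**Figure D1:**
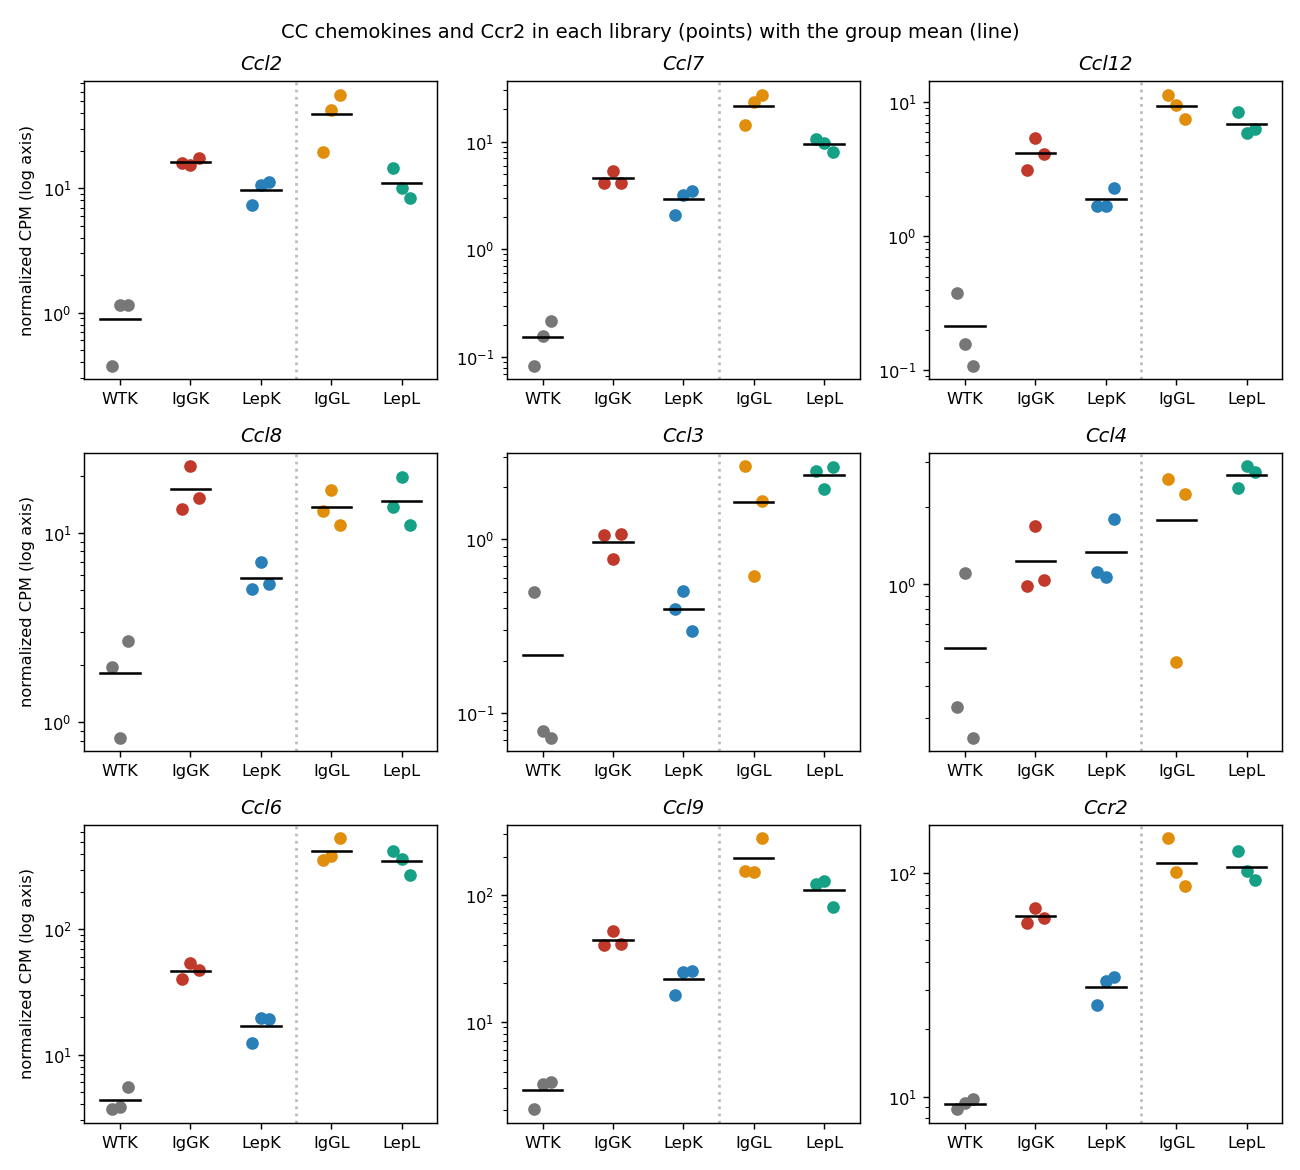
Normalized CPM (log axis) of each gene in each library, with points for the 3 libraries of a group, a line for their mean, and a dotted line between kidney and lung. For Ccr2 the WTK libraries sit between 8.76 and 9.74 CPM, all below the LepK libraries, which sit between 25.6 and 34.3 CPM and below all IgGK libraries.

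The second comparison asked what LepAb changed in the folic acid kidney. Ccl2, Ccl6, Ccl8, Ccl9, Ccl12 and Ccr2 fell in LepK against IgGK, 6 of the 9 genes, where 5.99% of all genes tested were called lower. None rose by edgeR or DESeq2, and the 7 with an unadjusted p under 0.05, a share of 32.9% over all genes, were all lower. The median log2 fold change was -1.06 over the 9 genes and -0.01 over all genes. In 8 of the 9 genes, all but Ccl4, every LepK library lay below every IgGK library, a pattern shown by 19.5% of genes.

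Ccl8 had the lowest log2 fold change of the 9. Its 5.04, 7.01 and 5.35 CPM in LepK lay below the 13.4 CPM of the lowest IgGK library. The mean fell by 66.0%, from 17.1 ± 4.77 to 5.80 ± 1.06 CPM (SD, n = 3), a log2 fold change of -1.56 (SE 0.29) with an adjusted p of 0.00318 in edgeR. Ccl6 stood at 12.5, 19.5 and 19.1 CPM in LepK, apart from the IgGK libraries, a log2 fold change of -1.46 (SE 0.18, adjusted p = 0.000309). Ccl9 was at 16.2, 24.6 and 24.9 CPM in LepK, also apart from IgGK, with a log2 fold change of -1.02 (SE 0.17, adjusted p = 0.00172). Both are CCR1 ligands.

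Ccr2 was at 25.6, 32.7 and 34.3 CPM in LepK, against at least 59.9 CPM in IgGK. The mean fell by 51.9%, from 64.2 ± 5.11 to 30.9 ± 4.62 CPM (SD, n = 3), and the log2 fold change of -1.06 (SE 0.10) had the smallest adjusted p of the 9 genes in edgeR, 0.000115. The LepK libraries stayed above all WTK libraries. In whole tissue, fewer cells of a type and less RNA per cell cannot be told apart.

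Among the CCR2 ligands, Ccl12 was at 1.68, 1.68 and 2.29 CPM in LepK, below the IgGK libraries, and its log2 fold change was -1.16 (SE 0.33, adjusted p = 0.0285). Ccl2 was at 7.41, 10.6 and 11.3 CPM in LepK, with a log2 fold change of -0.74 (SE 0.23, adjusted p = 0.0391). Its fall in the mean was 40.2%. Ccl7, at 2.07, 3.18 and 3.51 CPM, did not overlap IgGK, but its log2 fold change of -0.64 (SE 0.28, adjusted p = 0.128) was not called. LepK replicate 1 was the lowest LepK library for Ccl2, Ccl6, Ccl7, Ccl8, Ccl9 and Ccr2.

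Ccl3 was at 0.40, 0.50 and 0.30 CPM in LepK, 8 to 15 counts a library, with a log2 fold change of -1.27 (95% confidence interval -2.59 to 0.06, adjusted p = 0.172). Ccl4 was at 1.12, 1.07 and 1.81 CPM, where replicate 3 lay above all IgGK libraries and the others within their range, with a log2 fold change of 0.10 (95% confidence interval -0.99 to 1.19, adjusted p = 0.916). Neither difference was called, and the intervals of both reach beyond a 1 log2 unit change in at least one direction.

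Ccl6, Ccl8, Ccl9 and Ccr2 kept their calls in all 6 fits that left out 1 library. Ccl12 lost its call without IgGK replicate 2 or 3 or LepK replicate 1 or 2, with log2 fold changes of -1.32 to -0.94 and adjusted p-values up to 0.136 over the 6 fits. Ccl2 lost its call in every such fit but the one without LepK replicate 2, with log2 fold changes of -0.86 to -0.57 and adjusted p-values up to 0.135. Without both adrenal-high libraries, which leaves 1 IgGK library assumed to vary like the other groups, 2 of the 9 genes were called. These were Ccl6 at -1.47 (adjusted p = 0.0120) and Ccr2 at -1.02 (adjusted p = 0.00785). Ccl8 was then at -1.39 (adjusted p = 0.0835), Ccl9 at -0.90 (0.0635), Ccl12 at -1.12 (0.261) and Ccl2 at -0.85 (0.240). The part of the adrenal RNA in these values was not tested beyond that fit. With library size as the only scaling all 6 genes were still called, with a median over all genes of -0.19, while the split over all genes went from 858 higher and 1174 lower to 408 higher and 2185 lower.

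LepK also differed from the vehicle kidney. In LepK against WTK, 7 of the 9 genes were called higher, where 15.2% of genes were. The median was 1.96 over the 9 genes. Ccl7 was at 4.20 (SE 0.39), Ccl2 at 3.43 (SE 0.29), Ccl12 at 3.14 (SE 0.43) and Ccl9 at 2.92 (SE 0.21) on the log2 scale. Ccl6 was at 1.96 (SE 0.20), Ccr2 at 1.73 (SE 0.11) and Ccl8 at 1.66 (SE 0.33). These 7 were called in each fit that left out 1 library. Ccl3 at 0.90 (adjusted p = 0.337) and Ccl4 at 1.24 (adjusted p = 0.0879) were not called. Without WTK replicate 1 Ccl3 was called at 2.34 (adjusted p = 0.0247), and without WTK replicate 2 Ccl4 was called at 2.18 (adjusted p = 0.00823). The 3 kidney comparisons share their libraries in pairs and are not independent of each other.

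**Figure D2:**
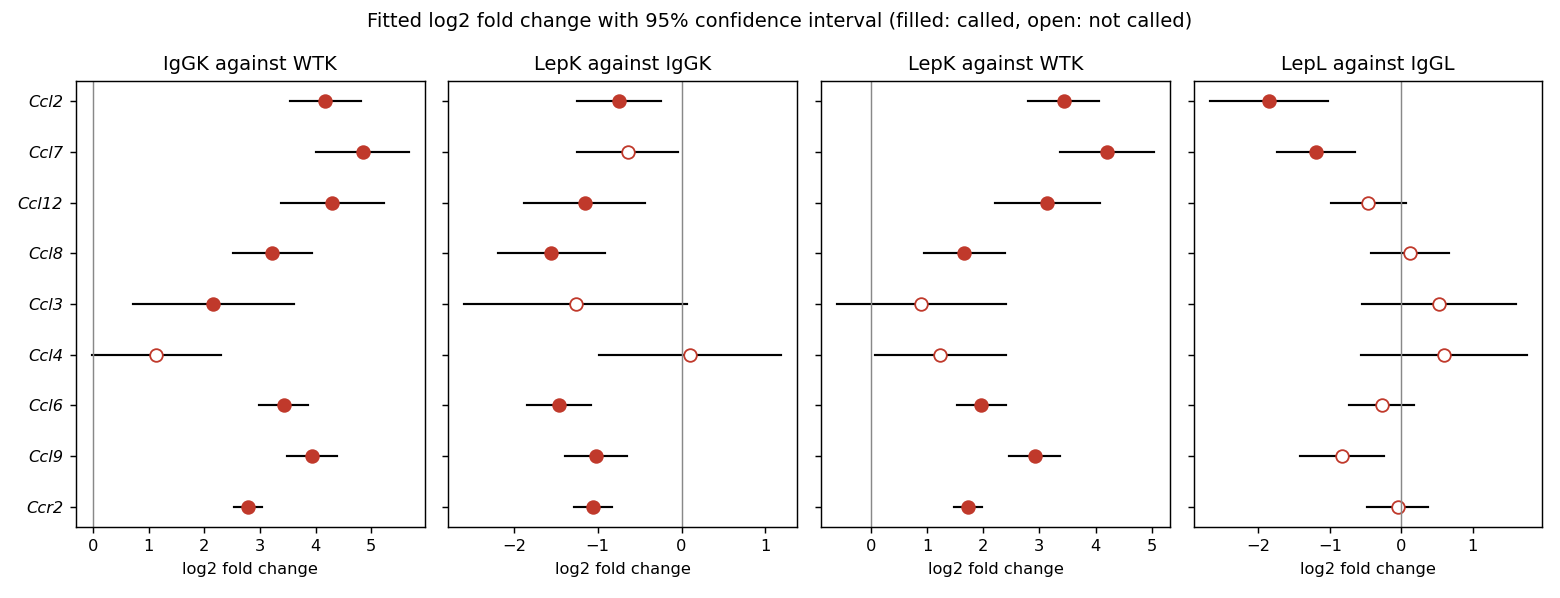
Fitted log2 fold change (point) with its 95% confidence interval (line) for each gene in 4 comparisons, filled where called and open where not. In LepK against IgGK the 6 filled points lie between -1.56 and -0.74, and in LepL against IgGL Ccl2 and Ccl7 alone are filled.

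The lung gave another pattern. Ccl2 and Ccl7 fell in LepL against IgGL, 2 of the 9 genes, where 2.36% of 19617 genes tested were called lower. None rose by edgeR or DESeq2, and the 3 with an unadjusted p under 0.05, a share of 27.3% over all genes, were all lower. The median log2 fold change was -0.28 over the 9 genes and 0.003 over all genes. Every LepL library lay below every IgGL library for Ccl2, Ccl7 and Ccl9, 3 of the 9 genes, against 17.3% of genes.

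Ccl2 was at 19.5, 42.9 and 56.8 CPM in IgGL and at 14.7, 10.1 and 8.29 CPM in LepL. The groups did not overlap, although IgGL replicate 1 lay nearer to the LepL libraries than to IgGL replicate 3. The mean fell by 72.3%, from 39.7 ± 18.9 to 11.02 ± 3.30 CPM (SD, n = 3), which is -1.85 in log2 fold change (SE 0.37) with an adjusted p of 0.0381 in edgeR. Ccl7 was at 14.2, 23.4 and 27.4 CPM in IgGL and at 10.6, 9.76 and 8.01 CPM in LepL, in the same order of libraries as Ccl2 in both groups. Its log2 fold change was -1.20 (SE 0.24, adjusted p = 0.0391), a fall of 56.3% in the mean. Ccl9 was at 153, 152 and 279 CPM in IgGL and 121, 127 and 80.5 CPM in LepL. Its libraries did not overlap, but the difference of -0.83 (95% confidence interval -1.42 to -0.24, adjusted p = 0.0881) missed the threshold in edgeR. DESeq2 called it (adjusted p = 0.0145), among 1102 of the 19617 genes that DESeq2 called lower.

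The lung calls rested on few libraries. Ccl2 and Ccl7 each kept their call in 1 of the 6 fits that left out a library, the one without IgGL replicate 1, where adjusted p-values fell to 0.000928 for Ccl2 and 0.00142 for Ccl7. Without IgGL replicate 2 or 3 or any LepL library, no member was called by edgeR. In these fits 3 or 4 members had an unadjusted p under 0.05, a share that was 27.3% over all genes with all lung libraries. Adjusted p-values reached 0.194 for Ccl2 and 0.195 for Ccl7. Over all genes those fits called at most 18 higher and 4 lower. The log2 fold changes stayed between -2.18 and -1.51 for Ccl2 and between -1.43 and -0.996 for Ccl7. Ccl9 was called without IgGL replicate 1, with an adjusted p of 0.0264. IgGL replicate 1 had the lowest summed level of 10 monocyte markers in its group, 633 CPM against 1038 and 1430 CPM, and the highest of 8 T cell markers, 60.7 CPM against 25.9 and 24.1 CPM. Their part in the Ccl2 and Ccl7 values was not tested.

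Ccr2 was not called in lung. It was at 143, 101 and 87.8 CPM in IgGL and 125, 102 and 93.1 CPM in LepL, with each LepL library inside the IgGL range. The log2 fold change was -0.05 (95% confidence interval -0.48 to 0.37, adjusted p = 0.883). Ccl8, at 13.05, 16.9 and 11.04 CPM in IgGL and 13.8, 19.7 and 11.03 CPM in LepL, also overlapped, at 0.12 (95% confidence interval -0.43 to 0.67). Ccl6 was at 354, 387 and 534 CPM in IgGL and at 422, 362 and 269 CPM in LepL, a difference of -0.28 (95% confidence interval -0.73 to 0.18).

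Ccl12, the remaining CCR2 ligand, had 11.3, 9.41 and 7.42 CPM in IgGL and 8.39, 5.81 and 6.30 CPM in LepL, and the difference was -0.46 on the log2 scale (adjusted p = 0.231). Its order of libraries differed from that of Ccl2, with the highest value in IgGL replicate 1. Ccl3 was at 2.63, 0.61 and 1.66 CPM in IgGL and 2.48, 1.96 and 2.62 CPM in LepL, with a difference of 0.52 (95% confidence interval -0.56 to 1.60). Ccl4 was at 2.58, 0.50 and 2.26 CPM in IgGL and 2.38, 2.89 and 2.75 CPM in LepL, a difference of 0.59 (95% confidence interval -0.57 to 1.75). IgGL replicate 2 was low for both MIP-1 ligands.

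The difference between the antibody effects of the organs was then tested itself, as LepK against IgGK minus LepL against IgGL over the 12 injured libraries. It was called for Ccl8, Ccl6 and Ccr2, 3 of the 9 genes, each with a lower log2 fold change in kidney than in lung, where 3.49% of 21488 genes were called in that direction. The difference was -1.64 for Ccl8 (SE 0.35, adjusted p = 0.0207), -1.16 for Ccl6 (SE 0.29, adjusted p = 0.0325) and -0.97 for Ccr2 (SE 0.24, adjusted p = 0.0312). Ccl2 went the other way, at 1.14 (95% confidence interval 0.18 to 2.09, adjusted p = 0.128), and Ccl7 was at 0.58, and neither was called. Ccl3 at -1.76 (adjusted p = 0.115), Ccl12 at -0.67, Ccl4 at -0.46 and Ccl9 at -0.16 were also not called. The organs differed in injuring agent, in length of treatment and in day of euthanasia, which cannot be told apart from the organ.

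The 3 organ differences were sensitive to single libraries. Ccl8 was called in 10 of the 12 fits that left out 1 library and lost its call without IgGK replicate 2 or LepK replicate 1 (adjusted p up to 0.0579). Ccl6 was called in 6 of the 12 and lost its call without IgGK replicate 2 or 3, LepK replicate 1, IgGL replicate 2 or LepL replicate 1 or 2 (adjusted p up to 0.0804). Ccr2 was called in 4 of the 12, those without LepK replicate 2 or 3 or IgGL replicate 1 or 3, with adjusted p-values up to 0.0778 elsewhere. Without both adrenal-high libraries, which leaves 1 IgGK library, the 3 lost their calls. Their values were then -1.50 for Ccl8, -1.18 for Ccl6 and -0.95 for Ccr2. Without IgGL replicate 1 Ccl2 and Ccl3 were called too, 5 genes in all, with adjusted p-values of 0.00705 for Ccl2 and 0.0279 for Ccl3.

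**Figure D3:**
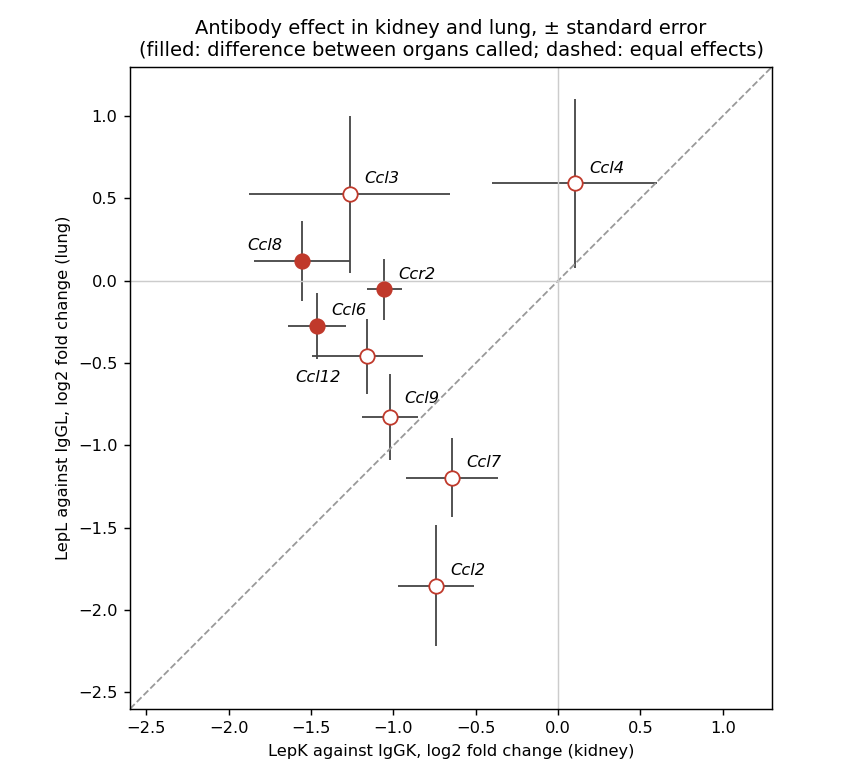
Log2 fold change with LepAb in kidney (horizontal axis, LepK against IgGK) and lung (vertical axis, LepL against IgGL), each with its standard error, and a dashed line of equal effects. The filled points Ccl8, Ccl6 and Ccr2, whose difference between organs was called, lie between -0.28 and 0.12 on the lung axis and between -1.56 and -1.06 on the kidney axis, while Ccl2 and Ccl7 lie below the dashed line.

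The mix of ligands was compared per gene length, in FPKM (fragments per kilobase of gene, scaled to library size). In the kidney Ccl8 had the highest mean FPKM of the 8 ligands in each group, with 2.94 in WTK, 26.9 in IgGK and 9.30 in LepK. It made up 37.7%, 31.8% and 24.5% of the summed ligand FPKM. Ccl6 came next in all 3 groups, at 25.6%, 24.8% and 20.5%. Ccl2 took 8.32% of the sum in WTK, 13.7% in IgGK and 18.6% in LepK, and was the third ligand in LepK and the fourth in IgGK.

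In lung Ccl6 led, with a mean of 162 FPKM in IgGL and 137 FPKM in LepL, and held 57.5% and 64.8% of the ligand sum. Ccl9 followed at 15.5% and 11.9%. Ccl2 was the third ligand of IgGL by FPKM, at 8.45%, and held 3.21% in LepL, behind Ccl8 at 9.61%. Ccl3 and Ccl4 together stayed the least abundant pair of ligands by FPKM in both lung groups, at no more than 2.84 FPKM each on average. These shares describe means of 3 libraries and were not tested.

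**Figure D4:**
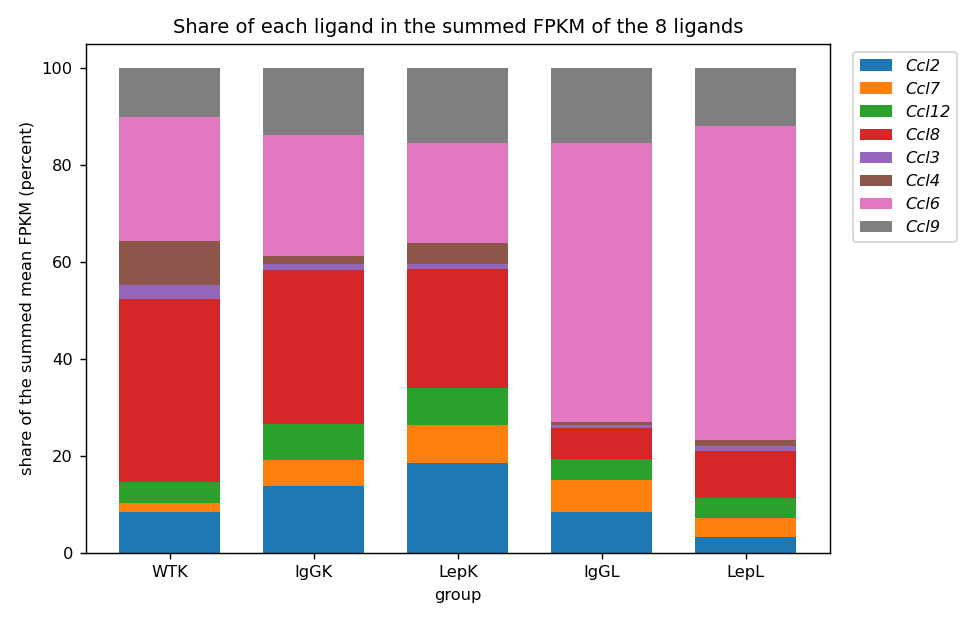
Share of each ligand in the summed mean FPKM of the 8 ligands, as a percent, in each group. Ccl8 makes up 37.7% of the WTK bar and 24.5% of the LepK bar, and Ccl6 fills 57.5% of the IgGL bar and 64.8% of the LepL bar.

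On a common scale over all 15 libraries, the 9 genes did not rank the groups alike. WTK was lowest for every gene. Ccl7 and Ccl9 ran IgGL, LepL, IgGK, LepK and WTK from high to low, with no overlap between neighbours. Ccl6 and Ccr2 had the same order, with IgGL and LepL overlapping, and Ccl12 had it with overlap of IgGL with LepL and of LepL with IgGK. Ccl2 ran IgGL, IgGK, LepK, LepL and WTK, at means of 35.7, 17.5, 10.47, 9.95 and 0.955 CPM, where IgGL overlapped IgGK and LepK overlapped LepL. Ccl8 was highest in IgGK at a mean of 18.3 CPM, overlapping LepL at 13.4 CPM, which overlapped IgGL at 12.3 CPM, with LepK at 6.21 CPM and WTK at 1.95 CPM apart. Ccl3 and Ccl4 were highest in LepL, and most of their neighbouring groups overlapped.

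**Figure D5:**
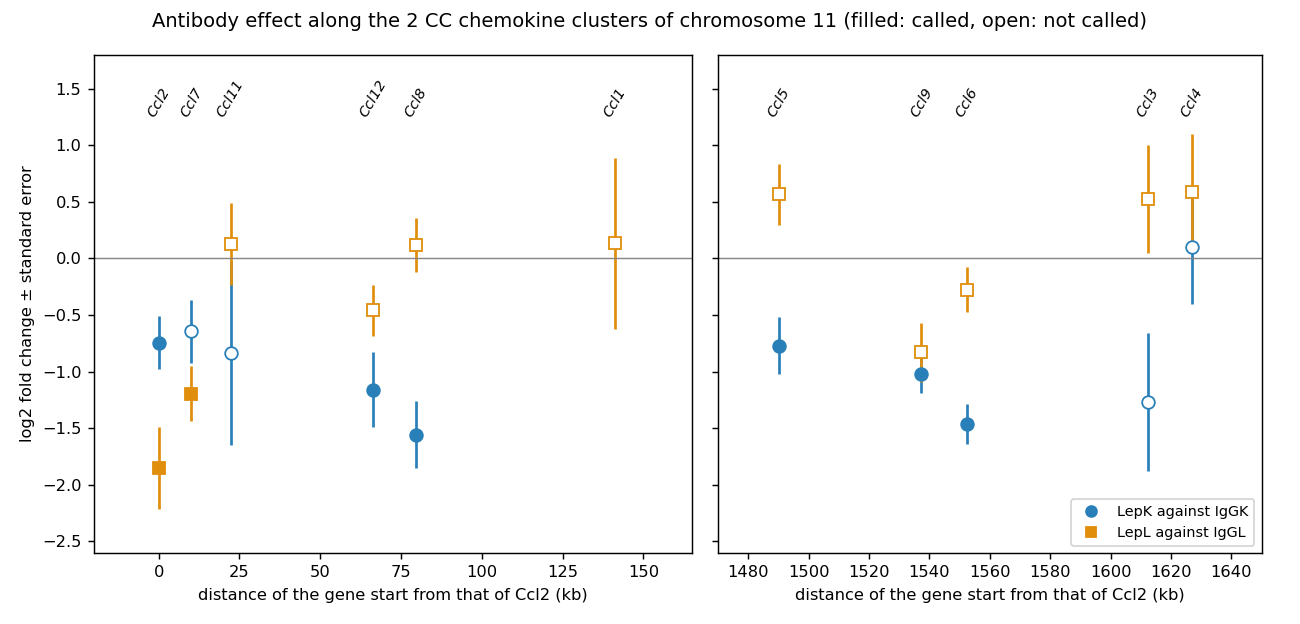
Log2 fold change ± standard error with LepAb in kidney (circles) and lung (squares) against the distance of each chromosome 11 CC ligand gene from Ccl2 in kb, filled where called and open where not. Ccl2 is called in both organs and Ccl7 in lung, while Ccl12 and Ccl8, which start 66.3 and 79.6 kb from Ccl2, are called in kidney.

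Likeness between neighbouring genes across libraries differed by pair and by organ. Pearson's r of log2 CPM between Ccl2 and Ccl7 was 0.99 over the 9 kidney libraries and 0.99 over the 6 lung libraries. Ccl6 and Ccl9 had an r of 0.98 in kidney and 0.90 in lung, and Ccl3 and Ccl4 had 0.29 in kidney and 0.93 in lung. Other pairs that are neighbours among these ligands were less alike in lung, although Ccl11, not a member, lies between Ccl7 and Ccl12. In lung r was 0.43 for Ccl7 and Ccl12, -0.10 for Ccl12 and Ccl8 and -0.31 for Ccl6 and Ccl3. In kidney the same pairs had 0.96, 0.94 and 0.80. Over all 36 pairs of the 9 genes the median r was 0.93 in kidney, with no pair below 0, and -0.10 in lung, with 21 pairs below 0. Ccr2 and Ccl2 had an r of 0.97 in kidney and -0.21 in lung. These libraries share their group differences, which in kidney include the injury itself, and the r values are descriptions.

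The kidney genes whose log2 CPM was most like Ccl2 by Pearson's r, among 14940 candidates over 9 libraries, were Meis3 (0.997), Ubd (0.996) and Nfkbiz (0.995), the last an atypical IkB protein. Over the 6 lung libraries the same genes had r of 0.66, -0.17 and 0.54 with Ccl2. For Ccr2 they were Marcks, Lhfpl2 and Trim12a, each at 0.999 in kidney and at 0.40, 0.51 and 0.39 in lung.

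Values of other genes whose products bind CC chemokines are read against all genes tested, of which 21.7% were called higher and 15.6% lower in IgGK against WTK, 4.38% higher and 5.99% lower in LepK against IgGK, and 1.78% higher and 2.36% lower in LepL against IgGL, as are the lists that follow. These are edgeR shares. In lung DESeq2 called more of the 19617 genes, 1236 higher and 1102 lower, against 349 and 463 by edgeR. Ccr1, the receptor of Ccl6 and Ccl9, rose in IgGK against WTK by 3.25 on the log2 scale (SE 0.48). With LepAb in kidney Ccr1 fell by 1.32 (SE 0.42), and Ackr1, a chemokine-binding protein of venules and red cells, fell by 1.63 (SE 0.51). In LepL against IgGL Ccr1 fell by 1.39 (SE 0.22) and Ackr2, a scavenger of CC chemokines, fell by 0.60 (SE 0.09). Ccr1 was at 45.7 to 82.2 CPM in IgGL and 21.3 to 28.6 CPM in LepL, with no overlap.

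The other inflammatory CC ligands moved in part with the 8. Of 6 listed, 5 were tested in kidney, and Ccl5, Ccl17 and Ccl22 rose in IgGK, with 2 of them, Ccl17 (-1.53, SE 0.46) and Ccl5 (-0.77, SE 0.25, adjusted p = 0.0498), called lower in LepK. None of the 6 was called in lung by edgeR or DESeq2, and 0 had an unadjusted p under 0.05. Of 12 genes that carry the signal from chemokine receptors, 7 rose and 1 fell in IgGK, and 5 fell in LepK. The 5 were Rgs1, a brake on G protein signalling (-1.43), Pik3r5, a subunit of PI3K gamma (-1.15), Dock2 (-1.09) and Rac2 (-0.76), which drive leukocyte migration, and Arrb2, a beta-arrestin (-0.65). None of the 12 was called in lung by edgeR or DESeq2, where 2 had an unadjusted p under 0.05.

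Of 11 inducers of these chemokines and NF-kB responses, 10 were tested in kidney. There 8 rose in IgGK, among them the cytokine Osm at 3.97 (SE 0.90) and Tnf at 3.08 (SE 0.52), and 5 fell in LepK, led by Il1b, a cytokine that induces Ccl2, at -1.46 (SE 0.32), and Tnfaip3, a feedback inhibitor of NF-kB, at -0.69 (SE 0.14). The other 3 were Csf1, Icam1 and Nfkbia, at -0.64, -0.62 and -0.52. In lung edgeR called none of the 10 tested, 5 of which had an unadjusted p under 0.05, and DESeq2 called 3, Il1a higher and Il6 and Osm lower.

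Most macrophage markers moved in the same direction as Ccr2 in kidney. Of 12 macrophage markers, 11 rose in IgGK and 10 fell in LepK, among them Adgre1 at -1.41 (SE 0.13) and Cd68 at -1.40 (SE 0.15). Their summed level ran from 283 to 326 CPM in WTK, from 1890 to 2398 CPM in IgGK and from 724 to 1042 CPM in LepK, and none was at 0 in any of these libraries. Ccr2 per 1000 CPM of these markers averaged 31.0 ± 1.66 in the vehicle kidneys, 31.0 ± 1.67 with control IgG and 33.4 ± 2.01 with LepAb (SD, n = 3). The same ratio for Ccl2 was 2.96 ± 1.47, 7.99 ± 1.41 and 10.48 ± 0.478, and for Ccl7 it was 0.503 ± 0.195, 2.19 ± 0.0596 and 3.11 ± 0.278. The Ccr2 ratios of the 3 groups overlapped, while those of Ccl2 and Ccl7 did not and were highest with LepAb. Ccl6 went the other way with LepAb, at 14.3 ± 2.30, 22.5 ± 1.60 and 18.2 ± 0.811, with no overlap between groups. Ccl8, at 5.94 ± 2.72, 8.10 ± 1.16 and 6.30 ± 0.950, was also lower in each LepK than in each IgGK library. The Ccl9 and Ccl4 ratios were higher in each LepK than in each IgGK library, and those of Ccl3 and Ccl12 overlapped. Of the 12 markers, Lyz2 alone made up 11.9% to 14.2% of the sum in WTK, 53.1% to 53.6% in IgGK and 38.1% to 45.3% in LepK. The ratios thus depend on a marker whose share differed between groups, and ratios without Lyz2 were not computed. The part of macrophage number in any of these values was not tested.

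In lung 5 of the 12 macrophage markers fell, among them Itgam at -1.59 (SE 0.34) and Fcgr1 at -1.28 (SE 0.28), and 11 of 12 were lower. The summed level was nonetheless higher in LepL, at 8300 to 8554 CPM against 4245 to 7063 CPM in IgGL. Lyz2, a lysozyme of macrophages that lung type II epithelial cells also make, took 83.6% to 88.3% of the sum in LepL and 51.9% to 75.4% in IgGL, and its own difference of 0.98 (SE 0.28, adjusted p = 0.0752) was not called by edgeR, while DESeq2 called it higher. The lung epithelial markers summed to 28726 to 45030 CPM in LepL against 15641 to 21080 CPM in IgGL.

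Of 10 monocyte markers, 9 were tested in kidney. There 5 rose in IgGK, and in LepK 5 fell, among them Nr4a1 (-1.995, SE 0.34), needed by patrolling monocytes, and Cx3cr1 (-1.11, SE 0.20). Chil3, a gene of inflammatory monocytes and alveolar macrophages, rose in LepK at 2.90 (SE 0.82), from at most 0.800 CPM in IgGK to between 1.18 and 6.87 CPM. In lung F13a1, a clotting factor gene of classical monocytes, fell by 2.04 (SE 0.36) and Treml4, a marker of patrolling monocytes, rose by 1.43 (SE 0.29). The summed level of the 10 markers was 59.4 to 92.0 CPM in LepK against 141 to 183 CPM in IgGK. In lung it was 573 to 627 CPM in LepL against 633 to 1430 CPM in IgGL. There 5 of the 10 were nonetheless higher in LepL and 5 lower, with a median log2 fold change of -0.03. DESeq2 called Chil3 in lung besides F13a1 and Treml4, with 1 of them higher and 2 lower. Neutrophil markers were low in kidney. The 10 summed to 2.01 to 2.28 CPM in WTK, 16.9 to 25.9 CPM in IgGK and 6.98 to 10.04 CPM in LepK. Up to 7 of the 10 had no counts in a WTK library, up to 6 in IgGK and up to 5 in LepK. The 4 tested there were called higher in IgGK and lower in LepK. Genes this low can pass the filter through the group where they are highest, so that direction is not separate evidence. In lung 5 of 9 tested neutrophil markers fell. All 8 T cell markers rose in IgGK, Cd3d alone fell in LepK (-1.14, SE 0.31), and none was called in lung by edgeR, where 3 had an unadjusted p under 0.05 and DESeq2 called Cd2 higher. What these cells contributed to the chemokine values was not tested.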

How the data were processed

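RNA-seq was performed by the authors' provider on RNA of 9 kidney and 6 lung libraries, with poly(A) selection and no strand information. The authors deposited raw read counts per gene and FPKM values (fragments per kilobase of gene, scaled to library size) in one table, with gene lengths and GRCm39 coordinates. GRCm39 and DESeq2 are named in the submitters' processing notes. The aligner and counter were not given in the sources used here. The table's columns of the authors' group means, fold changes and p-values were not used.

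Counts were tested with edgeR 4.0.16 (R 4.3.3) by the quasi-likelihood test with TMM scaling and filterByExpr (minimum count 10, minimum total count 15), with Benjamini-Hochberg adjustment over all genes tested. Kidney (9 libraries, 6 residual degrees of freedom) and lung (6 libraries, 4 residual degrees of freedom) were fitted separately, and the organ difference in 1 fit of 12 libraries. Calls used an absolute log2 fold change over 0.5 and an adjusted p under 0.05, the cutoffs of the study. Normalized CPM are counts over TMM library sizes. Total counts ran from 25913969 to 38924788, so 1 count was 0.0257 to 0.0386 CPM before TMM scaling. After it, 9 counts of Ccl2 in WTK replicate 1 were 0.374 normalized CPM. The named genes were all 9 members, the 3 kidney genes most like Ccl2 and Ccr2 by Pearson's r of log2(CPM + 0.5) among those with a mean of at least 1 CPM (2693 rows without a symbol could not be named), and called members of fixed lists. The members and lists were chosen with earlier results of these data known. The scripts were tested on simulated data. Alternatives were other scalings, DESeq2 1.42.0, other filters, other sets of samples, a replicate block and leaving out each library. The list of other CC receptors is described by Ccr1, Ackr1 and Ackr2, and its other genes are not reported here.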

Additional observations from a re-analysis of the deposited data

Results flagged for a closer look

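Ccl8, Ccl6 and Ccr2 are listed because the antibody effect was called different between kidney and lung in edgeR's interaction test over 12 libraries. Of the 12 fits that left out a single library, 10 kept the call for Ccl8, 6 for Ccl6 and 4 for Ccr2. For Ccl8 the kidney effect minus the lung effect was -1.64 on the log2 scale, from -1.56 in kidney and 0.12 in lung, and every LepK library was below every IgGK library while the lung groups overlapped. For Ccl6 it was -1.16, from -1.46 in kidney and -0.28 in lung. For Ccr2 it was -0.97, from -1.06 in kidney and -0.05 in lung. The organ, the agent and the time of treatment cannot be told apart in this difference, and no group had the 4 libraries that a search for a single outlying library would need.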

How the results depend on the processing

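Of 87 recomputed counts of called members, 72 stayed within 1.5 times the reported count. Without both IgGK libraries high in adrenal markers, a setting chosen after seeing the data, 2 members were called in LepK against IgGK and 0 in the organ difference. Leaving out 1 library gave 0 to 3 called members in LepL against IgGL and 0 to 5 in the organ difference. With the replicate number as a block, 0 members were called in LepL against IgGL (Ccl2 adjusted p = 0.0951, Ccl7 adjusted p = 0.0914), and no other call changed. Over all genes that block gave 1 higher and 3 lower lung calls against 349 higher and 463 lower, and omitting IgGL replicate 1 gave 1937 higher and 1602 lower. Without both adrenal-high libraries LepK against IgGK had 429 higher and 235 lower over all genes, and the organ difference 2 in each direction against 683 and 749. The labels do not say that replicate numbers pair the samples. Deviations of same-numbered libraries correlated at -0.10 to 0.23, and 3 of 12 pairs passed 0.1. Differently numbered libraries were not compared, so these values cannot decide whether the numbers pair the samples. Of 780 recomputed values of single genes, 712 kept their direction and side of the threshold, 48 lost a call, 12 gained one and 8 changed sign, each of the 8 uncalled. Ccl4 in LepK against IgGK was -0.077 with library size as the only scaling and -0.18 to 0.39 when 1 library was left out. In LepL against IgGL, leaving out 1 library gave -0.14 to 0.30 for Ccl8 and -0.20 to 0.18 for Ccr2. Ccl2 in LepK against IgGK lost its call in the fit of all 15 libraries (adjusted p = 0.167), and Ccl9 in LepL against IgGL was called by DESeq2 (adjusted p = 0.0145), in the fit of all 15 libraries (0.0256) and without the filter (9.18e-06). Requiring a mean of 1 CPM removed Ccl3 from the kidney tests. The cause of these changes was not tested. With 2 to 12 counts a library in WTK, Ccl3, Ccl7 and Ccl12 are limited by depth.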

Other observations

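Markers of cells that are not white blood cells also differed with LepAb. Of 7 fibroblast markers, 7 rose in IgGK against WTK, 6 fell in LepK against IgGK and 4 fell in LepL against IgGL. Col1a1, a chain of type I collagen, was at -1.24 (SE 0.21) in kidney and -1.21 (SE 0.20) in lung on the log2 scale. Pdgfra, a growth factor receptor of fibroblasts, was at -0.85 (SE 0.08) and -0.90 (SE 0.16). Dcn and Lum, proteoglycans of the matrix, fell in kidney (-0.60 and -0.91) and were not called in lung (0.16 and -0.13). Of 3 fat cell markers, Adipoq, the adiponectin gene, fell in LepK at -1.26 (SE 0.40) and rose in LepL at 1.51 (SE 0.23), and Cidec, a lipid droplet gene, rose in LepL at 1.29 (SE 0.18). The 3 fat cell markers summed to 33.5 to 46.8 CPM in LepL against 11.2 to 19.7 CPM in IgGL. In kidney they summed to 17.8 to 57.6 CPM in WTK, 128 to 207 CPM in IgGK and 39.7 to 103 CPM in LepK. All 3 were called higher in IgGK against WTK. How much fat tissue was attached to each organ was not tested.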
